A study of Mus musculus with 14 samples.

Results

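The tristetraprolin family comprises RNA-binding proteins with a pair of CCCH zinc fingers, encoded in these data by Zfp36 (tristetraprolin itself, ENSMUSG00000044786), Zfp36l1 (ENSMUSG00000021127) and Zfp36l2 (ENSMUSG00000045817). These 3 genes, of 21444 in the mRNA tables, were chosen by name and not by their values, and were looked up in the 8 mRNA libraries and by gene name in both AGO2 PAR-CLIP tables. The study asked how the RNA-binding protein ELAVL1 bears on miRNA binding in mouse macrophages. Macrophages were grown from C57BL/6 bone marrow in medium with 20% L929-conditioned medium, for 6 days per the labels' protocols and for 7 days per the series design text. All cells carried the floxed Elavl1 allele (ELAVL1f/f). The wild type group (WT) had no Cre, and the group labelled knockout (KO) also carried LysM-Cre, in which Cre is driven from the Lyz2 gene of the myeloid lineage. There were 4 mRNA libraries per genotype, numbered 1 to 4, with 1 PAR-CLIP library per genotype and small RNA libraries of WT 1, WT 2, KO 3 and KO 4. The labels do not tie a library to an animal, so each p-value measures how far these particular samples spread, which may be technical.

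As background, family members bind AU-rich elements, which hold the pentamer ATTTA, in 3′ UTRs and bring the CCR4-NOT deadenylase and the decapping and exosome enzymes to the mRNA. In macrophages this limits cytokine mRNAs, of which Tnf is the textbook case. The kinase MK2, downstream of p38, phosphorylates tristetraprolin so that 14-3-3 adaptors hold it inactive, and the phosphatase PP2A reverses this. ELAVL1 also binds AU-rich sequence and is best known for stabilising the mRNAs it holds. Tristetraprolin mRNA carries AU-rich elements itself and is a target of its own protein.

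The mRNA libraries held 8160789 to 25030262 counts and PAR-CLIP gave 66451 groups (clusters of overlapping reads, 6287870 reads) in WT and 85458 groups (6445262 reads) in KO. Elavl1 did not check the labels: its counts per 1000000 (CPM, scaled by TMM) were 65.9, 61.2, 62.6 and 64.2 in WT 1 to 4 and 76.8, 64.1, 64.9 and 72.4 in KO 1 to 4. Elavl1 mRNA was thus not lower in any library labelled knockout than in the WT library of its number, so every direction given here is between libraries as labelled. Lyz2, which carries the Cre insertion, had a mean of 12428 ± 2555 CPM in the WT libraries (SD, n = 4), and the KO libraries had 5067 ± 1004 CPM, with no overlap and KO lower in all 4 numbers. The summed CPM of 9 macrophage markers ran from 20702 to 25188 in WT and from 13813 to 16720 in KO. Without Lyz2 the other 8 summed to 9737 to 10868 CPM in WT and 10091 to 10611 CPM in KO, and their log2 fold changes ran from -0.17 to 0.22. Of the lists of markers of other cell types, none summed to more than 120.2 CPM in any library.

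All 3 genes were expressed well in these macrophages. On the deposited RPKM scale, which is per transcript length and so allows levels to be compared between genes, Zfp36 stood at 65.8, 66.8, 69.2 and 97.4 in WT 1 to 4 and at 73.7, 78.0, 103 and 128 in KO 1 to 4. Zfp36l1 stood at 27.5, 51.0, 42.4 and 41.9 RPKM in WT and at 30.4, 50.7, 46.1 and 41.0 RPKM in KO. Zfp36l2 stood at 83.5, 146, 86.0 and 84.0 RPKM in WT and at 111, 144, 98.6 and 98.1 RPKM in KO. Zfp36 was highest in number 4 of both genotypes, and Zfp36l2 in number 2 of both, while Zfp36l1 was lowest in number 1 of both. Zfp36l1 was the lowest of the 3 genes in all 8 libraries, and its values overlapped neither of the others in either genotype. Zfp36l2 was above Zfp36 in 5 libraries (WT 1, 2 and 3, KO 1 and 2), and Zfp36 was above Zfp36l2 in 3 (WT 4, KO 3 and 4). The order of these neighbours was not separated from their spread, with 74.8 ± 15.1 RPKM for Zfp36 and 99.8 ± 30.6 RPKM for Zfp36l2 in WT (SD, n = 4). In KO the means were 95.8 ± 25.2 RPKM and 113 ± 21.8 RPKM.

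**Figure D1:**
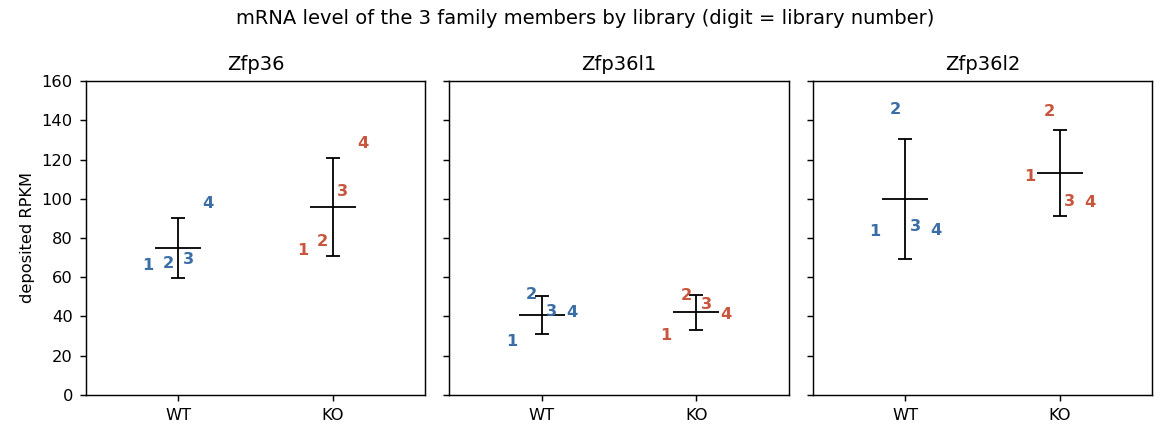
Deposited RPKM (y axis) of the 3 genes in WT and KO, with each library drawn as its number and the bar giving the mean and SD of 4 libraries. Zfp36l1 lies below the others throughout, Zfp36 is highest in number 4 and Zfp36l2 in number 2 of both genotypes.

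Against all tested genes the members ranked high. Zfp36 had a higher RPKM than 93.1% to 97.0% of the 14019 tested genes across libraries, Zfp36l2 than 94.8% to 97.1%, and Zfp36l1 than 83.8% to 90.9%. Zfp36 supplied from 25.4% (WT 2) to 47.9% (KO 4) of the summed RPKM of the family, and Zfp36l2 from 36.7% (KO 4) to 55.3% (WT 2). The share of Zfp36l1 was narrower, from 14.1% (KO 1) to 21.4% (WT 3). Zfp36l3, a further family member found in rodents (ENSMUSG00000059334), had 0 to 4 counts in every library.

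The first comparison asks whether the members' mRNA differed between the genotypes. Zfp36 was higher in KO than in the WT library of the same number 4 times out of 4, Zfp36l2 3 times and Zfp36l1 2 times, but no member passed the test across all genes. Zfp36 had 133, 139, 138 and 194 CPM in WT 1 to 4 and 154, 160.5, 207 and 253 CPM in KO 1 to 4. The genotypes overlapped, because WT 4 exceeded KO 1 and KO 2. In bulk libraries such as these, fewer cells of a type and less RNA per cell cannot be told apart. The KO minus WT differences were 0.21, 0.21, 0.58 and 0.38 on the log2 scale for numbers 1 to 4. KO above WT in all 4 numbers was found for 9.52% of tested genes, and Zfp36 was 1 of those. The edgeR quasi-likelihood estimate was a log2 fold change of 0.36 (SE 0.21, 1.28-fold, adjusted p = 0.9999 after Benjamini-Hochberg), and 0.0% of tested genes were called in that comparison.

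Zfp36l2 had 338, 607, 344 and 335 CPM in WT 1 to 4 and 464, 595, 395 and 387 CPM in KO 1 to 4. WT 2 and KO 2 were both far above the rest of their group, and the groups overlapped. Its differences by number were 0.45, -0.03, 0.20 and 0.21, with an edgeR log2 fold change of 0.18 (SE 0.25, adjusted p = 0.9999). Zfp36l1 had 94.2, 179.5, 143 and 141 CPM in WT and 107, 176, 156 and 137 CPM in KO. The 2 genotypes covered almost the same range of Zfp36l1, with differences of 0.19, -0.03, 0.13 and -0.05. Its edgeR log2 fold change was 0.05 (SE 0.23, adjusted p = 0.9999), and the sign turned without WT 1 (-0.10) or without KO 2 (-0.07). The processed pseudogene Zfp36l1-ps, with 7.48 ± 4.18 CPM in WT and 6.99 ± 3.09 CPM in KO (SD, n = 4), may share reads with Zfp36l1, since the treatment of reads that map more than once is not given in the sources used here.

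Libraries with the same number deviated together across genes, so the number was also fitted as a block. Within numbers 3 and 4, unequal numbers deviated together as much (r = 0.832 for WT 4 with KO 3, 0.801 for WT 4 with KO 4). The pairing by number is therefore not settled there. With the block the errors shrank: Zfp36 had a log2 fold change of 0.35 (SE 0.08, edgeR adjusted p = 0.202), Zfp36l2 of 0.21 (SE 0.09, adjusted p = 0.489) and Zfp36l1 of 0.06 (SE 0.08, adjusted p = 0.833). The block called 0.0357% of tested genes and no member. At an unadjusted p under 0.05 in edgeR the blocked fit held 9.42% of tested genes (0.578% without the block), and Zfp36 and Zfp36l2 were among them. DESeq2 called 0.0214% of genes without the block and 0.585% with it. With the block, which was added for DESeq2 after the data were seen, DESeq2 gave Zfp36 an adjusted p of 0.0532, and no member was called.

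**Figure D2:**
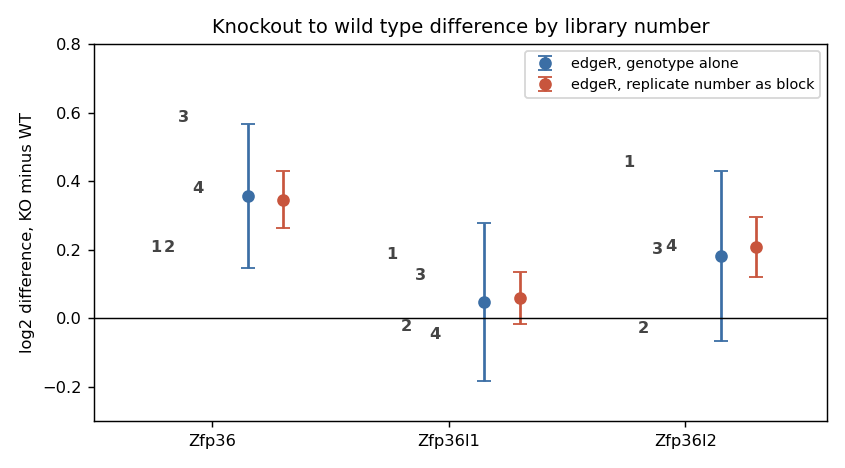
KO minus WT difference on the log2 scale (y axis) for each gene, with digits for the library numbers and points with SE bars for the edgeR estimates with genotype alone and with the number as a block. All 4 Zfp36 digits lie above 0, from 0.21 to 0.58, while those of Zfp36l1 straddle it.

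Numbers 1 and 2 and numbers 3 and 4 formed separate sets in the mRNA counts. Within numbers 1 and 2 edgeR gave Zfp36 a log2 fold change of 0.20 (SE 0.18), and within numbers 3 and 4 it gave 0.46 (SE 0.17, adjusted p = 0.445). The difference between these sets was not tested. Zfp36l2 had 0.16 and 0.20 in the same sets and Zfp36l1 0.05 and 0.03. The 10 fibroblast and stromal markers also set the numbers apart: they summed to 15.6, 5.70, 21.1 and 69.1 CPM in WT 1 to 4 and to 4.59, 5.002, 107 and 120.2 CPM in KO 1 to 4. The 3 libraries with the highest Zfp36 (WT 4, KO 3 and KO 4) had the highest sums of these markers, none of which was at 0 in all libraries. The 6 endothelial markers summed to 7.38 to 27.0 CPM in WT and 6.21 to 45.8 CPM in KO, with the same libraries highest. WT 3 came close to WT 4 in this endothelial sum, but had 138 CPM of Zfp36 against 194 CPM in WT 4. In WT 4, KO 3 and KO 4 most of the endothelial sum was Kdr, while the endothelial marker Egfl7 was highest in WT 2. The part of these cell types in the Zfp36 values was not tested.

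The balance within the family was compared as the log2 ratio of RPKM values (0.01 added) with exact permutation tests, 2-sided and adjusted over the 3 ratios, where 4 against 4 libraries cannot go below 0.0286. Zfp36 over Zfp36l1 was 0.89 ± 0.42 in WT and 1.18 ± 0.42 in KO (SD, n = 4), a difference of 0.28 (exact p = 0.429, adjusted p = 0.771). Zfp36 over Zfp36l2 was -0.39 ± 0.55 in WT and -0.26 ± 0.59 in KO (exact p = 0.771, adjusted p = 0.771). Zfp36l1 over Zfp36l2 was -1.28 ± 0.32 in WT and -1.43 ± 0.34 in KO (exact p = 0.514, adjusted p = 0.771). None of the 3 ratios passed the test. By number, the KO minus WT difference of Zfp36 over Zfp36l1 was 0.02, 0.23, 0.46 and 0.43, above 0 in all 4.

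The genes whose log2 CPM followed a member most closely over the 8 libraries differed from member to member. For Zfp36 these were Kctd20 (Pearson r = 0.967), Tagln (r = 0.961), a smooth muscle and stromal actin-binding protein, and Gng2 (r = 0.960), a G protein subunit. For Zfp36l1 they were the kinase gene Csnk1e (r = 0.994), the glutathione transferase gene Gstm1 (r = 0.989) and the complement gene C1ra (r = 0.984). For Zfp36l2 they were the iron-sulfur scaffold gene Iscu (r = 0.995), the amino acid transporter gene Slc43a2 (r = 0.988) and the transcription factor gene Lyl1 (r = 0.986). Between members r was 0.57 for Zfp36l1 with Zfp36l2, 0.19 for Zfp36 with Zfp36l1 and -0.22 for Zfp36 with Zfp36l2. These values describe 8 libraries that share their number sets and depth, and carry no test.

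The machinery that the family recruits was listed as 38 genes of the CCR4-NOT, decapping and exosome complexes and their partners, of which 37 were tested. No gene of the list passed the test with or without the block; 24 had a log2 fold change above 0 and 13 below, with a median of 0.04 against -0.0017 over all tested genes. The 3 with the smallest p were the exosome subunit Exosc7 (16.4 ± 1.86 CPM in WT, 20.3 ± 3.41 CPM in KO, log2 fold change 0.31, SE 0.17), the decapping cofactor Dcp1a (0.19, SE 0.14) and the exosome subunit Exosc8 (0.20, SE 0.15). The kinases, phosphatases and 14-3-3 adaptors that regulate the family were listed as 26 genes, of which 25 were tested. None passed the test; 10 were above 0 and 15 below, with a median of -0.04. The smallest p values belonged to Mapkapk3 (MK3, a kinase close to MK2), with 68.5 ± 6.31 CPM in WT and 76.7 ± 3.89 CPM in KO (log2 fold change 0.16, SE 0.13), the 14-3-3 gene Ywhab (-0.20, SE 0.17) and the p38 gene Mapk11 (-0.43, SE 0.43).

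Of 28 mRNAs listed as reported tristetraprolin targets, 20 were tested and 18 of these had a log2 fold change below 0, against 50.4% of all tested genes. None passed the edgeR test with genotype alone, and the median was -0.25 against -0.0017 over all tested genes. With the number as a block 1 passed, the neutrophil chemokine Cxcl2. The list shares inflammatory genes with lists that earlier results of these data had shown to be lower, so its direction is not independent evidence. Tnf itself had 95.2, 51.1, 71.2 and 68.2 CPM in WT 1 to 4 and 99.6, 58.4, 52.8 and 60.4 CPM in KO 1 to 4. Tnf was higher in KO in numbers 1 and 2 and lower in numbers 3 and 4, with an edgeR log2 fold change of -0.08 (SE 0.26, adjusted p = 0.9999).

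Cxcl2 had 18.1, 5.88, 3.25 and 4.19 CPM in WT 1 to 4 and 6.37, 1.63, 1.42 and 1.92 CPM in KO 1 to 4. Each KO library was below the WT library of its number, while KO 1 exceeded 3 of the 4 WT libraries. With genotype alone the edgeR estimate was -1.53 on the log2 scale (SE 0.68, adjusted p = 0.9999), and with the block -1.41 (SE 0.18, adjusted p = 0.0213). The next by p were Nos2, the inducible nitric oxide synthase, at 6.51 ± 2.40 CPM in WT and 3.23 ± 1.97 CPM in KO (log2 fold change -1.03, SE 0.48), and Ptgs2, the inducible cyclooxygenase, at 3.30 ± 1.40 CPM and 1.61 ± 0.91 CPM (-1.04, SE 0.53). With the block 9 of the 20 had an unadjusted p under 0.05 and were lower, where 4.52% of all tested genes did so. Across all 4 numbers 6 of the 20 were lower in KO and 0 were higher, where 8.26% and 9.52% of all tested genes were. The 6 were Cxcl1, Cxcl2, Ptgs2, Nos2, Vegfa and Dusp1, and the 2 with a log2 fold change above 0 were Il1b (0.30, SE 0.55) and Fos (0.15, SE 0.52). Csf2, Il6, Il12b, Il23a, Ifng and Lif were measured but too low to be tested.

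**Figure D3:**
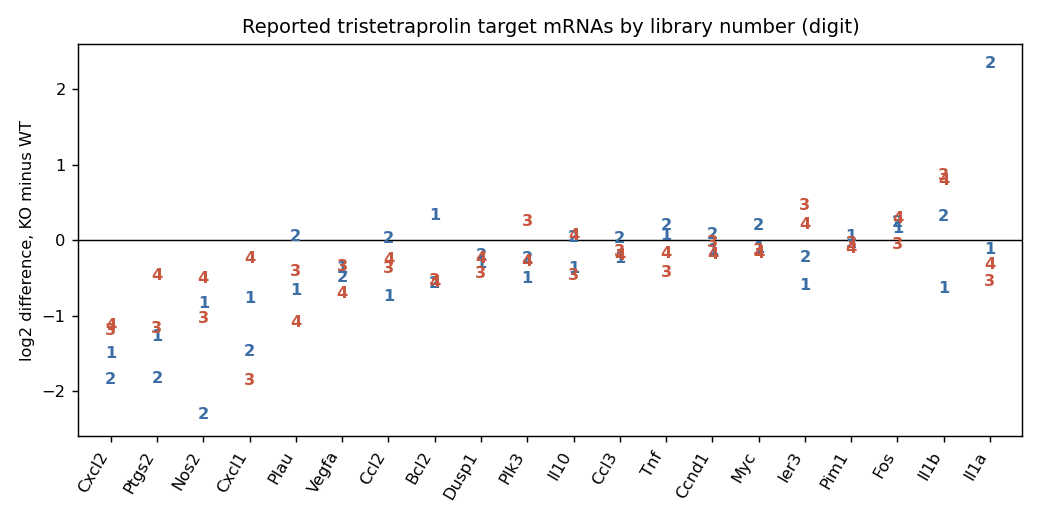
KO minus WT difference on the log2 scale (y axis) for the 20 tested target mRNAs, ordered by their mean difference, with digits for the library numbers (1 and 2 blue, 3 and 4 red). All 4 digits lie below 0 for Cxcl2, Ptgs2, Nos2, Cxcl1, Vegfa and Dusp1, and the single high value of Il1a is from 0.0934 CPM in WT 2 and 0.474 CPM in KO 2.

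The second comparison concerns AGO2, the protein that holds the miRNA, on the members' own mRNAs. The PAR-CLIP method feeds cells 4-thiouridine, a uridine analogue that is read as C where a protein was crosslinked to it, and T-to-C conversion events per 100 reads are the measure of this. With 1 library per genotype there is no test, and the exact 95% intervals cover counting error of reads that carry no molecular identifiers. Levels are given as RPM, the reads of a group per 1000000 reads in all groups of its library. Groups annotated to 3′ UTRs held 28.0% of these reads in WT and 23.4% in KO. Over the 4684 genes with 3′ UTR groups in both genotypes the median KO to WT ratio was 0.762 (quartiles 0.504 and 1.19), and over the 2290 with 100 reads or more in either it was 0.691 (0.498 and 0.942).

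AGO2 reads on the Zfp36 3′ UTR were above those of 98.7% of genes with 3′ UTR groups in WT and of 99.1% in KO. Zfp36 (chromosome 7, minus strand, mm9, transcript ENSMUST00000051241) had 8 groups with 2571 reads in WT (409 RPM, 393 to 425) and 11 groups with 3111 reads in KO (483 RPM, 466 to 500). The KO to WT ratio was 1.18 (1.12 to 1.24). This was above the upper quartile of genes with 100 reads or more (0.942) and just below that of all genes with groups in both genotypes (1.19). Groups were called in each library separately: those of Zfp36 covered 348 bases in WT and 335 in KO, at a mean of 1.17 and 1.44 RPM per covered base. Zfp36l1 (chromosome 12, minus strand, transcripts ENSMUST00000165114 and ENSMUST00000021552) had 7 groups with 431 reads in WT (68.5 RPM, 62.2 to 75.3) and 5 groups with 279 reads in KO (43.3 RPM, 38.4 to 48.7). Its ratio of 0.632 (0.541 to 0.736) was lower than the median ratio of either set of genes but within the quartiles of both. The Zfp36l1 groups covered 188 and 157 bases at 0.365 and 0.276 RPM per covered base. The ratios of these 2 members lay on opposite sides of 1, and neither was past 2-fold, as those of 34.8% of genes with groups in both genotypes were (10.1% higher and 24.7% lower in KO). Set against the mean mRNA level, Zfp36 had 34.4 3′ UTR reads per RPKM in WT and 32.5 in KO, and Zfp36l1 10.6 and 6.64.

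The reads of Zfp36 were concentrated in few places. A group of 85 bases at chr7:29162126-29162210 held 1606 reads in WT, or 62.5% of the 3′ UTR reads, with 93.7 conversion events per 100 reads. In KO the group at chr7:29162126-29162208 held 2178 reads, or 70.01%, with 92.1 events per 100 reads, a ratio of 1.32 (1.24 to 1.41). The second, chr7:29162421-29162453 in both genotypes, held 479 and 554 reads (ratio 1.13, 0.997 to 1.28), an interval that includes 1. The third, chr7:29161873-29161942 in WT with 301 reads, overlapped KO groups of 240 and 14 reads. The median over all 3′ UTR groups was 25 bases and 17 reads in WT and 24 bases and 19 reads in KO.

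The weaker Zfp36 groups had ratios on both sides of 1. The WT group chr7:29162454-29162484 (31 bases) had 54 reads, and the KO group chr7:29162465-29162484 (20 bases) had 13 (ratio 0.235, 0.118 to 0.436). The WT group chr7:29162048-29162084 (37 bases) had 40 reads, and the KO group chr7:29162064-29162082 (19 bases) had 21 (0.512, 0.287 to 0.890). Both ratios thus compare groups of unequal length. The group chr7:29162231-29162259 had 10 reads in WT with no conversion, and the KO group overlapping it 36 reads (ratio 3.51, 1.71 to 7.94). Groups in KO at chr7:29162271-29162292 (10 reads) and chr7:29161829-29161849 (12 reads) overlapped no WT group. The KO group chr7:29162544-29162570 (19 reads) overlapped no WT 3′ UTR group, but it overlaps a WT group at chr7:29162560-29162587 (16 reads) that the deposited table places in coding sequence. By location 7 of 8 WT groups overlapped a KO group, and 8 of 11 KO groups a WT group, where 40.6% and 52.1% of all 3′ UTR groups did. Conversion was seen in 7 of 8 and 8 of 11 groups, where 86.9% of all 3′ UTR groups in WT and 81.6% in KO had it.

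Zfp36l1 had its reads in 2 main groups, with ratios on opposite sides of 1. The group chr12:81209303-81209333 held 189 reads in WT and 64 in KO, a ratio of 0.330 (0.245 to 0.441), with 100 events per 100 reads in both. The group chr12:81210169-81210206 held 131 reads in WT, and the KO group chr12:81210167-81210222 held 175, a ratio of 1.30 (1.03 to 1.65). The strongest group of the gene was therefore a different one in each genotype. In WT alone there were groups at chr12:81210379-81210404 (50 reads), chr12:81209618-81209635 (26 reads) and chr12:81209663-81209686 (16 reads), and the last 2 had no conversion. In KO alone there was chr12:81209033-81209054 (12 reads). The remaining overlapping groups were small and of unequal length. The WT group chr12:81210045-81210075 had 13 reads and the KO group chr12:81210052-81210070 had 7. The WT group chr12:81209738-81209757 had 6 reads and the KO group chr12:81209738-81209767 had 21. In all 4 of 7 WT groups overlapped a KO group and 4 of 5 KO groups a WT group, where 40.6% and 52.1% of all 3′ UTR groups did. Conversion was seen in 4 of 7 and 5 of 5, beside the same shares of 86.9% and 81.6%.

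Zfp36l2 had no group annotated to a 3′ UTR in either genotype; the tables list groups of 5 reads or more, so fewer reads could lie there unseen. Its coding sequence (chromosome 17, minus strand) held 1 group with 368 reads in WT and 6 groups with 419 reads in KO. The strongest was chr17:84586458-84586490 in both, with 368 reads and 14.9 conversion events per 100 reads in WT and 323 reads and 3.72 events per 100 reads in KO. The median over coding groups was 100 events per 100 reads, and 23.0% of coding groups in WT and 31.3% in KO had less conversion than this one. It had more reads than 99.2% and 99.1% of coding groups. Zfp36 had 5 coding groups with 166 reads in WT and 6 with 164 in KO, and Zfp36l1 had 2 with 37 reads in WT and 0 in KO.

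Beyond the last coding group of Zfp36l2 in either table, the KO group chr17:84585429-84585466, the tables list groups on the same strand in the class Intergenic, with no gene name; these were looked up after the values had been seen. Within 2000 bases of the end of that group there were 11 such groups with 1426 reads in WT (227 RPM, 215 to 239) and 10 with 874 reads in KO (136 RPM, 127 to 145), a ratio of 0.598 (0.549 to 0.651). They covered 291 and 245 bases at 0.779 and 0.553 RPM per covered base. None lay on the opposite strand, and the next group on the same strand was 42333 bases further on in WT and 42236 in KO. In WT 82.4% of these reads were in 1 group, chr17:84584570-84584628, with 1175 reads. It overlapped KO groups at chr17:84584570-84584594 (584 reads) and chr17:84584595-84584621 (102 reads), a ratio of 0.570 (0.518 to 0.626) for the sum. Conversion was seen in 9 of 11 WT and 7 of 10 KO groups. Whether these groups belong to the Zfp36l2 transcript was not tested, since no mm9 annotation was used here. As a 3′ UTR total, the sum would exceed that of 97.0% of genes in WT and 95.9% in KO.

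**Figure D4:**
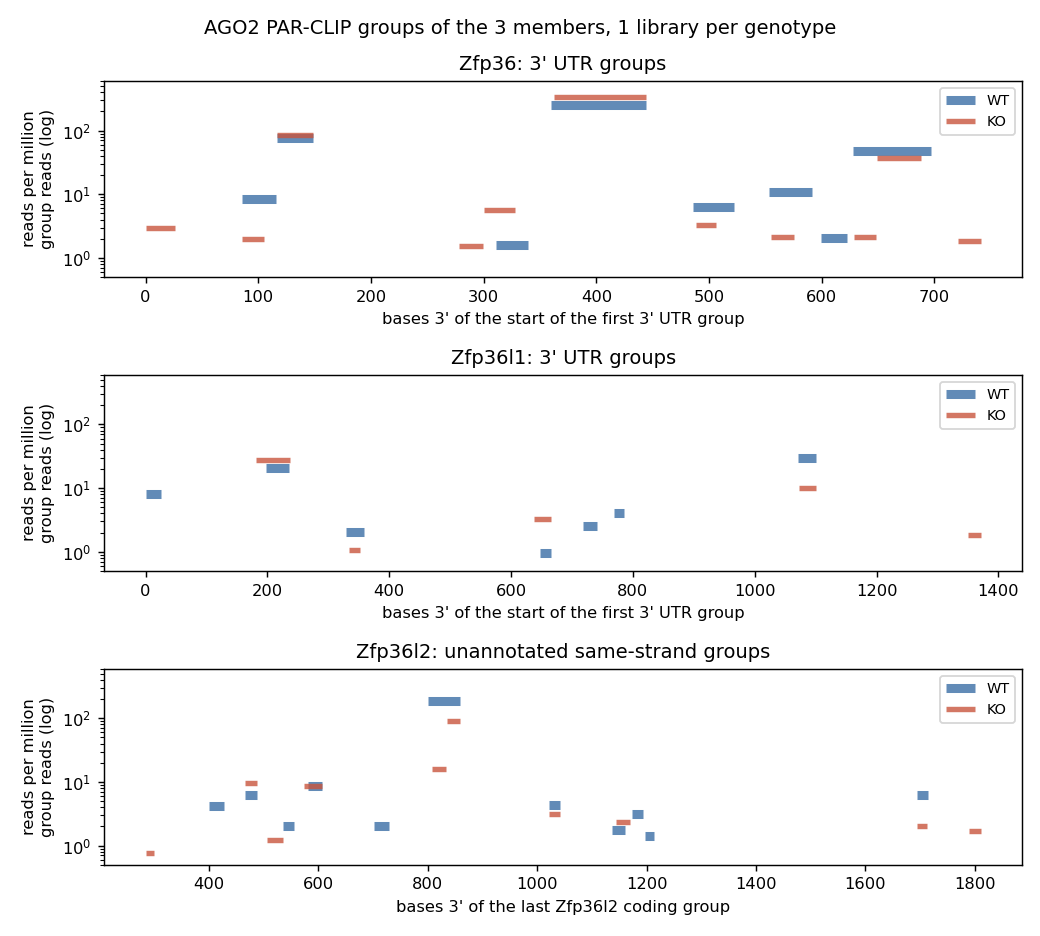
AGO2 groups of Zfp36, Zfp36l1 and the region 3′ of the last Zfp36l2 coding group listed in either genotype, with distance in bases in the direction of transcription (x axis) and RPM (y axis, log scale), each bar spanning 1 group. Zfp36 keeps its strongest group in both genotypes, Zfp36l1 has its strongest group in a different place in each, and the strongest group 3′ of Zfp36l2 has 1175 reads in WT and 686 in the 2 KO groups it overlaps.

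The groups were searched for matches to the seeds (bases 2 to 8, or bases 2 to 7 followed by an A in the target) of the 30 most abundant miRNAs, of which 27 had a mature sequence in RefSeq (GRCm38.p6) with 18 distinct seeds. For miR-378a-3p, miR-30d-5p and miR-142-3p there was no such sequence. A match was found in 5 of the 15 member groups in WT and 5 of the 16 in KO, where 18.3% and 18.6% of all 3′ UTR groups held one. All 10 matches were to 2 seeds, those of miR-27 and miR-29a, and lay at the same 5 places in both genotypes. The region 3′ of Zfp36l2 held a match to miR-21a. These are the miRNAs with the seed in capitals.
miR-27a-3p: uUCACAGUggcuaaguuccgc
miR-27b-3p: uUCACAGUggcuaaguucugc
miR-29a-3p: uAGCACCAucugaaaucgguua
miR-21a-5p: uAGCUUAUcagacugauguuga

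The miR-27 seed match lay in the strongest group of Zfp36 and in the Zfp36l1 group with most reads in KO. The windows below are shown because the KO groups that hold them carry most of the 3′ UTR reads of their genes in KO. The positions printed are those of the overlapping WT groups. The windows are copied from the deposited group sequences, and capitals mark the match.
Zfp36, chr7:29162126-29162210: aatcttaagtgCTGTGAAgagccggctccc
Zfp36l1, chr12:81210169-81210206: ctaactttgtcACTGTGActacattacctc
A miR-27 match was present in 3.09% of all 3′ UTR groups in WT and 3.30% in KO. Long groups hold more matches: among WT groups within 5 bases of the same length the share was 21.4% of 14 for the Zfp36 group and 7.78% of 1825 for the Zfp36l1 group. Among KO groups, for the KO groups of these genes, it was 20% of 5 for Zfp36 and 12.6% of 111 for Zfp36l1. The match is a description of these letters and shows no pairing. miR-27a-3p had 5645 and 5563 CPM in WT 1 and 2 and 5529 and 5175 CPM in KO 3 and 4. miR-27b-3p had 11538 and 11670 CPM in WT and 12684 and 11755 CPM in KO. In both KO libraries miR-27a-3p was below, and miR-27b-3p above, its values in both WT libraries. The nearest values were close (5563 and 5529 CPM, 11670 and 11755 CPM), and no difference was tested. Genotype and library number cannot be told apart in the small RNA data.

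The miR-29a seed match occurred in a pair of Zfp36 groups and in a small group of Zfp36l1, so the mRNAs share this match as well as that of miR-27. Capitals again mark the match.
Zfp36, chr7:29162421-29162453: caataacccatttcccTGGTGCTgggctgg
Zfp36, chr7:29162048-29162084: aatccTGGTGCTcaaatttccctcctaaag
Zfp36l1, chr12:81209738-81209767: actatgagagacttgatttTGGTGCTAaag
The match was present in 1.89% of all 3′ UTR groups in WT and 2.10% in KO. The WT groups with these matches had 479, 40 and 6 reads, and the KO groups overlapping them had 554, 21 and 21. The Zfp36 group of 21 reads in KO, chr7:29162064-29162082, had no conversion. miR-29a-3p had 5450 and 5705 CPM in WT 1 and 2 and 7914 and 5124 CPM in KO 3 and 4, so the genotypes overlapped.

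In the region 3′ of Zfp36l2 the strongest WT group held a match to miR-21a-5p, the most abundant miRNA of these cells, with 457783 and 442029 CPM in WT 1 and 2 and 544621 and 444965 CPM in KO 3 and 4. It is shown because it lies in the group with most reads of that region in WT.
Region 3′ of Zfp36l2, chr17:84584570-84584628: ctccctaaactATAAGCTtctagaactcaa
In KO the match lay in the group of 102 reads and not in its neighbour of 584 reads. It was present in 0.543% of all 3′ UTR groups in WT and 0.620% in KO.

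Since the family binds ATTTA and its own mRNA is a known target, the groups were also searched for that pentamer on the strand of the mRNA. It was found in 2 of 15 member groups in WT and 1 of 16 in KO, all of Zfp36, where 7.48% and 6.33% of all 3′ UTR groups held it. The heptamer TATTTAT, which contains the pentamer, was in the same groups, against 1.44% and 1.18% of all 3′ UTR groups. The windows show each pentamer in capitals.
Zfp36 WT, chr7:29161979-29162017: gccctttATTTAtgacgactttATTTAttg
Zfp36 WT, chr7:29161948-29161971: attttatagtATTTAtatatattg
Zfp36 KO, chr7:29161995-29162015: ccagtgggccctttATTTAtg
The WT groups had 68 and 13 reads. The KO group had 14 reads, overlapped the WT group of 68 reads (ratio 0.201, 0.104 to 0.361) and reached only the first of its pentamers, while the WT group of 13 reads overlapped no KO group. Together the Zfp36 groups with the pentamer had a KO to WT ratio of 0.169 (0.0883 to 0.299). Over all genes the ratio was also below 1, at 0.577 for 3′ UTR groups with the pentamer and 0.519 for those with the heptamer. All 3′ UTR group reads together had a ratio of 0.835. A pentamer counts only where a called group reaches it, and the KO group had 21 bases against 39 in the WT group it overlapped. The WT group of 68 reads had 44.1 conversion events per 100 reads, and the groups of 13 and 14 reads had 100 each. In the region 3′ of Zfp36l2 the pentamer was in 2 of 11 groups in WT, with 20 reads together, and in 1 of 10 in KO, with 15 reads.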

How the data were processed

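mRNA, small RNA and AGO2 PAR-CLIP libraries of WT and KO macrophages were used, grouped by the labels' genotype. Per the file headers, the authors deposited a read count and an RPKM for each of 21444 genes, miRNA read counts, and PAR-CLIP groups with position, strand, sequence, read count, conversion events, class and gene name. The submitters' processing notes name CASAVA 1.8.2, Bowtie 0.12.7 and mm9. For the gene counter, its use of strand and the group caller the answer is not given in the sources used here. Positions are as deposited, and whether they count from 0 or 1 was not settled. In the small RNA table of KO 4 the header of the fractions says KO 2, and the sample record was followed.

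Symbols matched 19328 identifiers. edgeR 4.0.16 (R 4.3.3) quasi-likelihood tests with TMM scaling and filterByExpr were fitted to the deposited counts of all genes (14019 tested, adjusted p threshold 0.05), with genotype alone and, as alternatives, with the replicate number as a block and with DESeq2 1.42.0. The script was tested on simulated data. Deposited RPKM values served to compare levels between genes, on log2(RPKM + 0.01). Depth was 8160789 to 25030262 counts per mRNA library and 6886110 to 10265453 per small RNA library. Group reads were compared as RPM of all group reads with exact 95% intervals (Python 3.11.15, scipy 1.17.1). Groups on the same strand sharing 1 base or more were counted as overlapping.

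Deviations from the group means correlated at 0.770, 0.810, 0.745 and 0.801 between WT and KO libraries of number 1, 2, 3 and 4, all above 0.1, so the numbers were taken as pairs from the data, not from the labels. Within numbers 3 and 4 unequal numbers correlated as much (0.832 for WT 4 with KO 3, 0.764 for WT 3 with KO 4), and across the sets r was negative. Deviations from a group mean sum to 0, so positive r within the sets forces negative r across them, which is no separate evidence.

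The members and lists were chosen with earlier results of these data known. The genes named were the 3 members, Elavl1, Lyz2 and Tnf, the genes of each list that passed with or without the block and the 3 of smallest p, the 3 genes most correlated with each member, and the miRNAs with a seed match. Other target genes and the groups 3′ of Zfp36l2 were named after their values were seen.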

Additional observations from a re-analysis of the deposited data

Results flagged for a closer look

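Among the WT libraries, 1 stood far from the other 3 for 2 of the members. For Zfp36 it was WT 4, at 194 CPM against 133 to 139 CPM, a gap of 0.904 of the whole range. For Zfp36l2 it was WT 2, at 607 CPM against 335 to 344 CPM, a gap of 0.966 of the range. Both gaps pass Dixon's 95% critical value for 4 samples, as chance does in about 1 of 20 groups. The KO library of the same number was also the highest of its genotype in both cases (KO 4 at 253 CPM, KO 2 at 595 CPM).

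The AGO2 reads 3′ of the last Zfp36l2 coding group, 1426 in WT and 874 in KO, lie in groups that carry no gene name and enter no 3′ UTR total. The strongest of them had more reads than 99.6% of Intergenic groups in WT and 99.3% in KO.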

How the results depend on the processing

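The log2 fold changes of Zfp36 and Zfp36l2 stayed above 0 and short of the threshold under all 14 alternatives run for each. Leaving out 1 library at a time gave 0.20 to 0.50 for Zfp36, 0.03 to 0.44 for Zfp36l2 and -0.10 to 0.19 for Zfp36l1, which turned without WT 1 (-0.10) and without KO 2 (-0.07). With the replicate block Zfp36 had 0.35, Zfp36l1 0.06 and Zfp36l2 0.21. The KO minus WT difference in the log2 ratio of Zfp36 to Zfp36l2 ran from -0.11 (without WT 2) to 0.35. Without KO 4 this difference was -0.08. The same difference ran from 0.12 to 0.47 for Zfp36 to Zfp36l1 and from -0.26 to -0.0035 for Zfp36l1 to Zfp36l2. Paired by number, exact sign-flip tests of these ratios gave p = 0.5, 0.125 and 0.25, where 4 pairs allow no p under 0.125. The count of genes called was 0 (81 at an unadjusted p under 0.05) and stayed 0 without any 1 library, but was 3 with DESeq2, 5 with the replicate block, 82 with the replicate block and DESeq2 (added after seeing the data) and 14 in numbers 3 and 4 alone, and the cause was not tested. In the target list 1 gene, Cxcl2, was called with the replicate block and 0 without it. The block changed no other call of a member or of a gene in the 3 pathway lists. The AGO2 ratio moved to 1.41 for Zfp36 and to 0.756 for Zfp36l1 when scaled by 3′ UTR reads alone, since that total fell in KO. Seed matches in member groups numbered 12 with 6mers and 13 with 50 miRNAs, against 10. No ratio could be computed for the Zfp36l2 3′ UTR class, which held 0 reads. PAR-CLIP groups had 5 reads or more, and intervals over few reads are wide.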
